A study of Mus musculus with 24 samples.

Results

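Aortas of sham-infused mice taken 4 months after the infusion were compared with those taken 2 months after it. The comparison holds 8 of the 24 RNA libraries of the series, 4 per group, chosen by their labelled treatment and time. By the labels all mice were wild type (WT) and carried a pump that delivered either vehicle (sham) or Ang II (angiotensin II, a peptide that narrows arteries and raises blood pressure) for 2 weeks. The groups used here were sham aortas at 4 months and sham aortas at 2 months, and, beside them, Ang II aortas at 4 months and Ang II aortas at 2 months, with 4 libraries each. Each sample was a homogenate of aorta and not a purified cell type; nothing says which stretch of the aorta was taken, or how much of the tissue around it. The sources used here do not give strain, sex, age or the vehicle's content, and nothing says whether each replicate was a separate animal. The p-values therefore reflect the spread between these samples alone, and that spread may be technical. Time since infusion, the age of the mice and any difference in the day of dissection, RNA extraction or sequencing cannot be told apart.

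The aortic wall has 3 coats. The inner one is a sheet of endothelial cells. The media holds smooth muscle cells, which contract through actin and myosin and lie between sheets of elastin, the protein that lets the vessel recoil. The adventitia holds fibroblasts and collagen and is wrapped in perivascular fat, which around the mouse thoracic aorta resembles brown fat and burns fatty acids for heat. A homogenate mixes all of them, so a lower level of a transcript can come from fewer cells of a type or from less RNA per cell, and bulk counts cannot tell these apart.

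Total counts were 22371834, 19983753, 21029485 and 24900764 in replicates 1 to 4 of sham aortas at 4 months, and 24345435, 22279692, 23411275 and 21209670 at 2 months. Levels are given below as CPM, the counts of a gene relative to the scaled total of its library, always in the order of replicates 1 to 4. Smooth muscle markers were present in all 8 libraries, but adipocyte genes took a larger share of the counts, which are not corrected for gene length. The 20 genes of the general adipocyte list summed to 37573 to 42286 CPM in sham aortas at 4 months and 29592 to 36753 CPM at 2 months, while the 24 contractile smooth muscle genes summed to 3026 to 6900.1 CPM at 4 months and 8993 to 13987 CPM at 2 months. Transcripts of the mitochondrial chromosome took 10.1% to 16.3% of the counts at 4 months and 7.72% to 14.3% at 2 months. Replicate 4 at 4 months stood apart from the other 3 of its group in smooth muscle and elastin transcripts, as given below. Airway epithelium transcripts, which an aorta should lack, summed to 283 to 2322 CPM at 4 months. At 2 months they reached 11934 CPM in replicate 3 and lay at 249.5 to 1174 CPM in the others. Skeletal muscle transcripts summed to 17383 CPM in replicate 2 at 4 months and to 1334 to 2809 CPM in the other 3, against 905 to 4545 CPM at 2 months. On the first principal component, which held 34.6% of the variance, sham aortas at 4 months lay at -50.5 to -6.70 and those at 2 months at -21.0 to 57.2, where replicate 2 lay among the libraries of 4 months and the other 3 did not.

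Many smooth muscle, elastic fibre and collagen transcripts were lower in sham aortas at 4 months than at 2 months, and several of fatty acid oxidation and of platelets were higher, but the spread within the groups was wide and 1 gene passed the main test. Of 16144 genes tested by the quasi-likelihood test of edgeR, with p-values adjusted by Benjamini and Hochberg's method and a threshold of 0.05, 1 was called, Prdm16, which was lower at 4 months (0.00619%), and none was called higher (0%). With no adjustment, 1776 genes were lower (11.0%) and 832 higher (5.15%) at a p under 0.05, and at an adjusted p under 0.1 it was 251 lower (1.55%) and 35 higher (0.217%), or 286 in all (1.77%). The 4 libraries at 4 months lay below all 4 at 2 months for 968 genes (6.00%) and above them for 584 (3.62%), or 9.61% together. DESeq2 on the same counts called 614 genes lower (3.80%) and 238 higher (1.47%), or 5.28% together. Without replicate 4 at 4 months, edgeR called 533 of 16423 genes lower (3.25%) and 130 higher (0.792%), and DESeq2 924 lower (5.63%) and 525 higher (3.20%). Without that library the remaining 3 at 4 months lay below all 4 at 2 months for 1804 genes (11.2%) and above them for 1430 (8.86%). Without replicate 3 at 2 months, DESeq2 called 427 of 16340 genes lower (2.61%) and 132 higher (0.808%). The median log2 fold change over all genes tested was -0.02. These percentages are the background against which counts of gene groups are read below, where lying wholly lower or higher means that all 4 libraries at 4 months were below or above all 4 at 2 months. With all 8 libraries edgeR called no member of any gene list other than Prdm16.

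**Figure D1:**
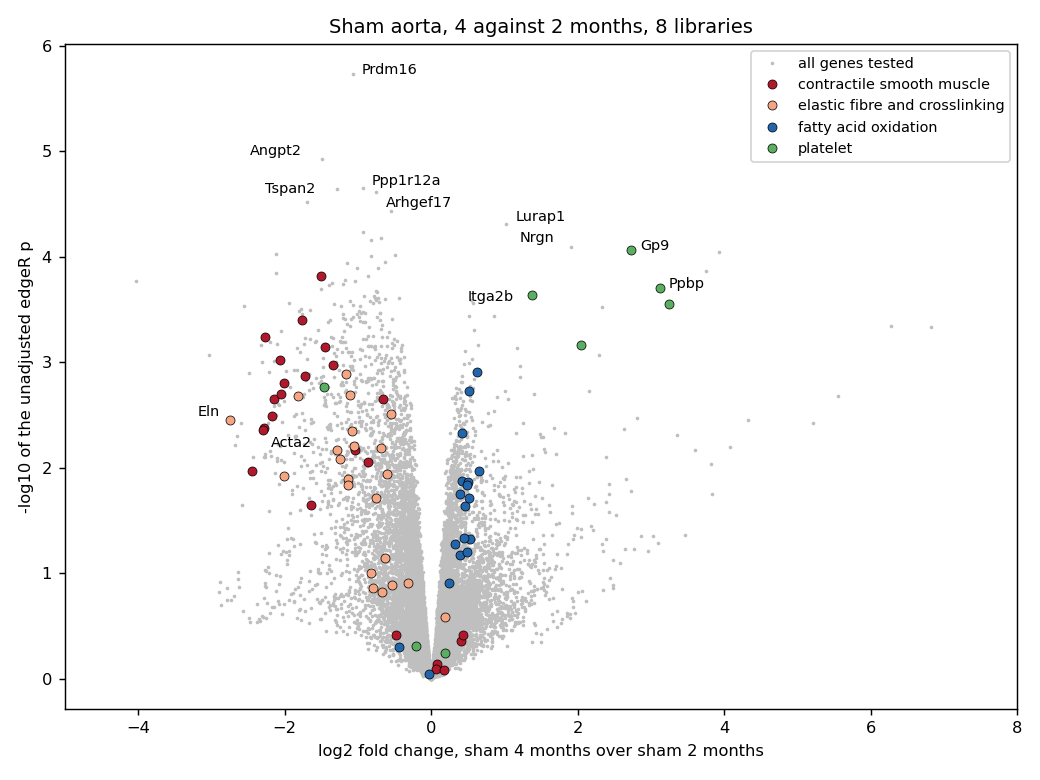
Each point is 1 of 16144 genes tested over the 8 sham libraries. The horizontal axis is the log2 fold change, sham 4 months over sham 2 months, and the vertical axis is -log10 of the unadjusted edgeR p. Contractile smooth muscle genes (dark red) and elastic fibre genes (light orange) lie mostly to the left, fatty acid oxidation genes (blue) to the right near 0.5, and 5 platelet genes (green) far to the right, while Prdm16 alone, at -1.07, passed the adjusted threshold.

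Prdm16 encodes a zinc finger transcription factor that drives the brown fat program and is also made in arterial smooth muscle and endothelial cells. It lies on the minus strand at chr4:154316125-154636873 (build mm10). Its level was 21.1, 20.01, 19.8 and 23.4 CPM in sham aortas at 4 months, against 47.0, 39.9, 40.4 and 45.6 CPM at 2 months. All libraries at 4 months thus lay below all libraries at 2 months, with a narrow spread in both groups. The means were 21.1 ± 1.67 and 43.2 ± 3.60 CPM (SD, n = 4 each), and Prdm16 fell by 1.07 on the log2 scale (SE 0.0946, edgeR adjusted p = 0.0299). DESeq2 called it as well, with an adjusted p of 2.03e-16. Leaving out any library other than replicate 4 at 4 months ended the edgeR call (adjusted p = 0.0589 to 0.282, log2 fold change -1.09 to -0.996). With an adipocyte score in the model the edgeR adjusted p was 0.268, and with an airway epithelium score 0.0802, at log2 fold changes of -1.09 and -1.08. Ang II aortas had 36.5, 32.1, 13.5 and 18.6 CPM at 4 months and 26.4, 18.4, 24.8 and 21.4 CPM at 2 months, ranges that overlap. The difference between the sham and the Ang II change did not pass (-1.18, edgeR adjusted p = 0.248). B230104I21Rik, Gm13133 and Gm13134 are annotated on the opposite strand within Prdm16, and whether the counting used strand is not given in the sources used here, so their reads cannot be told from its own. The promoter of the gene that passed is shown for reference, from 250 bases before to 50 bases after its RefSeq start (GRCm38.p6, chr4:154636824-154637123, minus strand), with the 50 bases from the start onward in capitals.
Prdm16: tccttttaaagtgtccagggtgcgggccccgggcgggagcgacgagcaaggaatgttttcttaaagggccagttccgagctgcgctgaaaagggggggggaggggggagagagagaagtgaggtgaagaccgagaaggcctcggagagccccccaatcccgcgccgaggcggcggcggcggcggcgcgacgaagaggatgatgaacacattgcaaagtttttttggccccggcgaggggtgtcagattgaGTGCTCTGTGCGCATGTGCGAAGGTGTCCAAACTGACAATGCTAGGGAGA

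The brown fat list as a whole did not lie lower with Prdm16. Of 15 tested members of that list, 2 lay wholly lower at 4 months (Prdm16 and Ebf2, another transcription factor of brown fat precursors) and none wholly higher, and the median was 0.43. Without replicate 4 at 4 months, 7 lay wholly higher, and DESeq2 called 5 higher. Ebf2 had 32.1, 36.6, 36.5 and 39.9 CPM at 4 months and 75.2, 45.4, 52.7 and 42.9 CPM at 2 months (-0.61, edgeR adjusted p = 0.155). Ucp1, the uncoupling protein that makes brown fat produce heat, had 3122, 3056, 2334 and 519 CPM at 4 months and 1445, 637, 1484 and 599.9 CPM at 2 months (1.07, SE 0.544, edgeR adjusted p = 0.376). Replicate 4 at 4 months was the lowest of all 8 libraries for Ucp1, and the other 3 of its group were the highest. Cox8b, a respiratory chain subunit of brown fat and muscle, had 754, 1000.2, 869.8 and 443 CPM at 4 months and 486, 367, 498 and 225 CPM at 2 months (0.92, edgeR adjusted p = 0.194, DESeq2 adjusted p = 0.041).

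Among genes that averaged at least 1 CPM over the 8 libraries, those with the next smallest p-values did not pass at 0.05 but lay apart between the groups. Among those lower at 4 months, Angpt2, a ligand that antagonises the endothelial receptor Tie2, had 8.24, 7.55, 6.47 and 8.47 CPM at 4 months and 22.1, 18.7, 16.9 and 26.8 CPM at 2 months (-1.49, SE 0.166, edgeR adjusted p = 0.0785). Angpt2 lies within Mcph1, a gene on the other strand. Ppp1r12a, the targeting subunit of the myosin phosphatase that relaxes smooth muscle, had 79.9, 72.9, 76.7 and 91.4 CPM at 4 months and 153, 157, 122 and 164 CPM at 2 months (-0.93, edgeR adjusted p = 0.0785). Tspan2, a tetraspanin abundant in arterial smooth muscle, had 19.0, 18.5, 17.3 and 26.9 CPM at 4 months and 53.3, 45.2, 43.5 and 53.3 CPM at 2 months (-1.29). For all of these the highest library at 4 months was below the lowest at 2 months. Arhgef17, an exchange factor that activates RhoA, was at 51.2 to 61.8 CPM at 4 months and 86.4 to 100.2 CPM at 2 months (-0.76). The edgeR adjusted p of Tspan2 and Arhgef17 was 0.0785 for both.

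Among those higher at 4 months, again at an average of at least 1 CPM, 4 of the 5 genes with the smallest p-values are known to be made in platelets. Lurap1, which encodes an adaptor that controls myosin-based cell movement, had 23.3, 27.0, 21.2 and 18.7 CPM at 4 months and 10.98, 11.2, 11.6 and 9.31 CPM at 2 months (1.03, SE 0.138, edgeR adjusted p = 0.0792). Nrgn, neurogranin, a calmodulin-binding protein of neurons and platelets, had 18.4, 20.1, 17.6 and 9.80 CPM at 4 months and 3.73, 4.51, 5.75 and 3.05 CPM at 2 months (1.90). Gp9 encodes a subunit of the platelet receptor for von Willebrand factor, Ppbp a chemokine of platelet granules and Itga2b the platelet fibrinogen receptor's alpha chain. Their fold changes were 2.73, 3.12 and 1.38 on the log2 scale, each with an edgeR adjusted p of 0.0792, and their values are given with the platelet list.

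Most contractile smooth muscle genes were lower at 4 months. Of 24 tested members, 17 lay wholly lower at 4 months and none wholly higher, where 6.00% and 3.62% of all genes did. DESeq2 called 16 lower and none higher, and edgeR called 16 lower without replicate 4 at 4 months, but none with all 8 libraries. The median log2 fold change was -1.57, against -0.02 over all genes. The summed level was 3688, 5885, 3026 and 6900.1 CPM at 4 months and 12210, 9914, 8993 and 13987 CPM at 2 months, so that the groups did not overlap.

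Acta2, smooth muscle alpha-actin, had 262, 286, 272 and 1261 CPM in sham aortas at 4 months, against 2667, 1917, 1528 and 3928 CPM at 2 months. The 4th library at 4 months was thus more than 4 times as high as the other 3 of its group and still below every library at 2 months. The means were 520.2 ± 494 and 2509.9 ± 1057 CPM (SD, n = 4 each; -2.29, SE 0.599, edgeR adjusted p = 0.129, or 0.00422 without replicate 4 at 4 months). Myh11, the smooth muscle myosin heavy chain, had 132, 154, 139.7 and 629 CPM at 4 months and 1461, 1126, 869 and 1221 CPM at 2 months (-2.17, edgeR adjusted p = 0.118). Cnn1, calponin, which binds actin and slows myosin, had 43.7, 53.0, 41.3 and 181 CPM at 4 months and 378, 304, 258 and 443 CPM at 2 months (-2.14). Replicate 4 was again the highest of its group for each, and again below all libraries at 2 months.

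Further members of the contractile list, picked as examples, had values in the same order. Mylk, the kinase that switches smooth muscle myosin on, had 102, 98.6, 76.5 and 159.6 CPM at 4 months and 282, 281, 256 and 394 CPM at 2 months (-1.50, SE 0.235, edgeR adjusted p = 0.0792). Myl9, the regulatory light chain that Mylk phosphorylates, had 113, 117, 109 and 369 CPM at 4 months and 760.4, 621, 485 and 928 CPM at 2 months (-2.01). Lmod1, a leiomodin that starts actin filaments, had 42.0, 57.7, 49.2 and 108 CPM at 4 months and 244, 215, 143 and 253 CPM at 2 months (-1.76, edgeR adjusted p = 0.0792). Flna, filamin A, which crosslinks actin, had 238, 253, 216 and 716 CPM at 4 months and 1666, 1358, 1006 and 1844 CPM at 2 months (-2.07). Itga8, an integrin chain of vascular smooth muscle, had the lowest fold change of the list, with 15.3, 19.0, 23.5 and 152 CPM at 4 months and 352, 279, 175 and 320.0 CPM at 2 months (-2.44, edgeR adjusted p = 0.175, or 0.00201 without replicate 4 at 4 months). Tagln, transgelin, usually among the most abundant smooth muscle transcripts, was counted at only 1.32 to 5.58 CPM at 4 months and 7.08 to 15.02 CPM at 2 months. It overlaps Pcsk7 and an antisense gene, and how reads shared by genes were counted is not given in the sources used here.

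Of the 7 members whose groups overlapped, several are also made by striated muscle. Des (desmin), Ldb3, Tpm1 (tropomyosin 1) and Pln (phospholamban) had fold changes of 0.44, 0.41, 0.07 and 0.18 on the log2 scale, and Tpm2 of -0.48. Myocd, the coactivator that turns contractile genes on, had 2.32, 1.26, 0.407 and 4.02 CPM at 4 months and 10.2, 5.35, 6.20 and 3.20 CPM at 2 months, which overlap (-1.64, edgeR adjusted p = 0.224). Cardiac muscle transcripts summed to 6108, 3037, 1117 and 5599.9 CPM at 4 months and 3888, 709.9, 8587 and 1457 CPM at 2 months, with no order by group. Their part, and that of skeletal muscle, in the values of the shared genes was not tested.

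**Figure D2:**
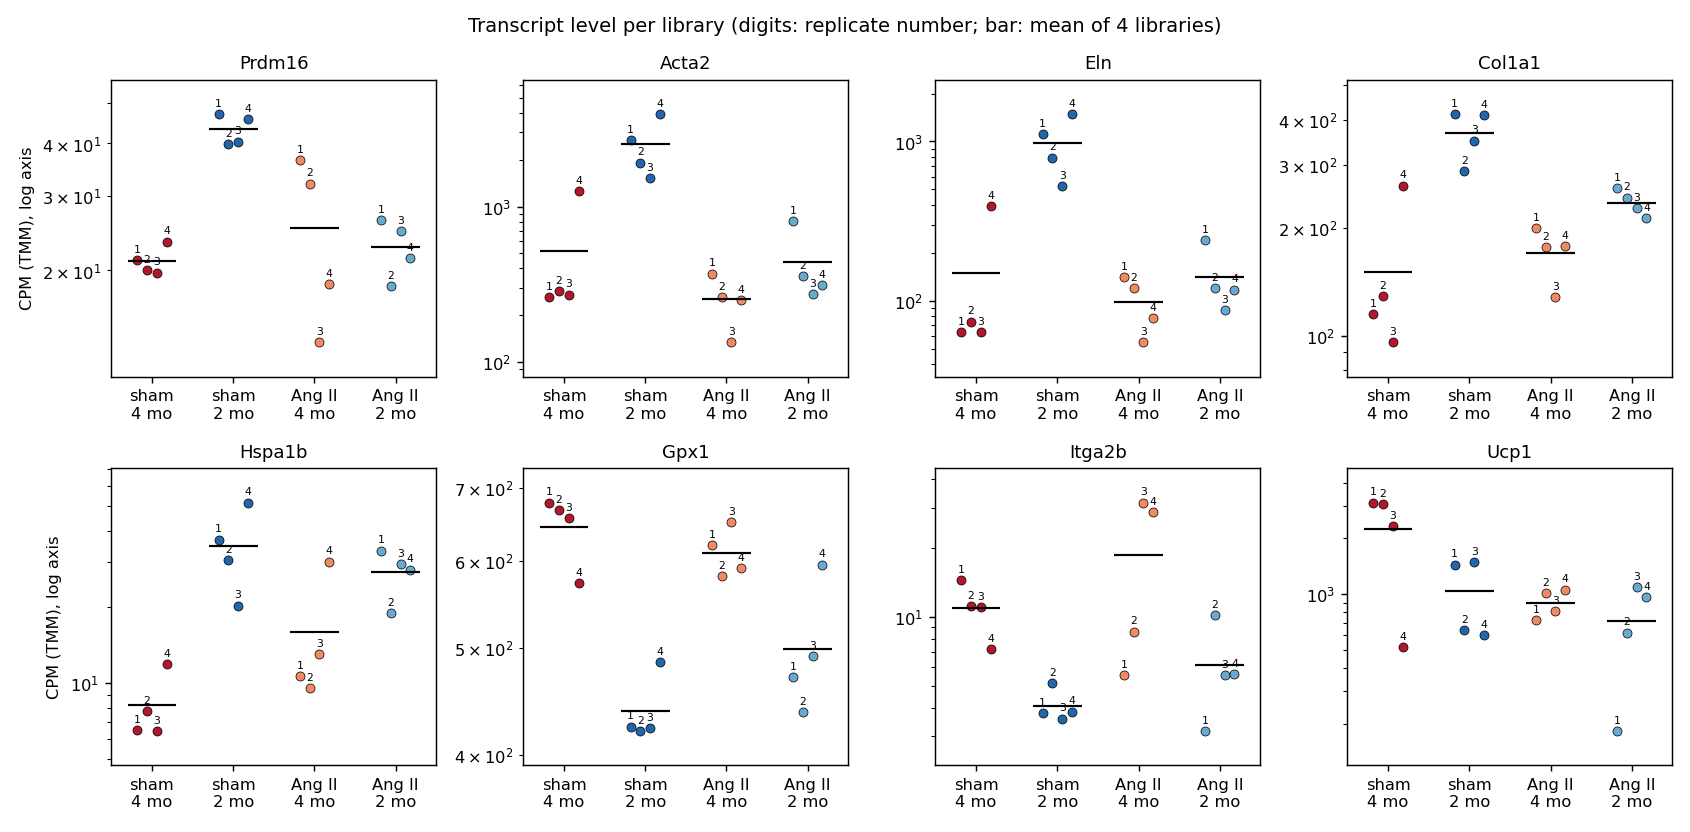
Levels of 8 genes in each library, in CPM on a log axis, with the replicate number above each point and the mean of 4 libraries as a bar, for sham 4 months, sham 2 months, Ang II 4 months and Ang II 2 months from left to right. Acta2, Eln and Col1a1 are lower in all 4 sham libraries at 4 months than in all 4 at 2 months, with replicate 4 the highest at 4 months. Prdm16, at 19.8 to 23.4 against 39.9 to 47.0 CPM, has narrow sham groups that lie apart.

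Contractile genes are known to be switched on by serum response factor, which binds the CArG box. That motif, written CC, then 6 bases that are each A or T, then GG, which reads alike on both strands, was searched in promoter windows of 300 bases. It was present in 535 of 32851 windows in the RefSeq table (1.63%), and in 4 of the 19 contractile genes that matched the table (Ldb3, Myl6, Myl9 and Vcl; 21.1%). The windows belong to 27025 gene symbols, and a gene was counted if any of its windows held the motif. The share of genes and the share of windows are thus in unlike units. The windows of Myl9 and Vcl, genes that lay wholly lower at 4 months, are printed, with the CArG box in capitals. Myl9 is on the plus strand at chr2:156775214-156775513, and Vcl, which encodes the adhesion protein vinculin, on the plus strand at chr14:20929148-20929447 (both GRCm38.p6).
Myl9: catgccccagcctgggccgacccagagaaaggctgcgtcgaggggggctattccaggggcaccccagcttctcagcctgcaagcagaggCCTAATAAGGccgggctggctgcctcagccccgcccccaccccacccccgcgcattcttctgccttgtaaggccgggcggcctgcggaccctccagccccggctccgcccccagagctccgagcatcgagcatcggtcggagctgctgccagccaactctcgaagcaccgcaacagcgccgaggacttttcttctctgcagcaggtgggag
Vcl: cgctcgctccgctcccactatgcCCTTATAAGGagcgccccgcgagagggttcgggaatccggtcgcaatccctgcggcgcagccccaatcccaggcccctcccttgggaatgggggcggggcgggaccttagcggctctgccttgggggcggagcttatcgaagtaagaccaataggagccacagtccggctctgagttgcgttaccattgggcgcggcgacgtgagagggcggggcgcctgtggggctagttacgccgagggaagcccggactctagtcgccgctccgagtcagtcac
Counted from the gene's start, the box begins at position -161 in Myl9 and at -227 in Vcl. Vcl had 27.0, 43.3, 25.7 and 52.4 CPM at 4 months and 87.6, 60.5, 63.7 and 53.2 CPM at 2 months (-0.87, edgeR adjusted p = 0.164), and it overlaps Ap3m1 on the other strand. A match describes these letters only and shows no binding.

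Genes that carry signals to the contractile machinery were mixed. Of 20 smooth muscle ion channel genes, none lay apart between the groups and DESeq2 called none (median -0.24). At an unadjusted edgeR p under 0.05, 8 of them were lower and 0 higher, beside 11.0% and 5.15% of all genes. Of 21 tested vasoactive receptor genes, 3 lay wholly lower, Htr1b, P2rx1 and P2ry6, and 1 wholly higher, Agtr1a, with a median of -0.27. Htr1b, a serotonin receptor that constricts arteries, had 0.510, 1.201, 0.917 and 2.89 CPM at 4 months and 6.78, 6.28, 4.41 and 8.18 CPM at 2 months (-2.21, edgeR adjusted p = 0.0924). P2rx1, the ATP-gated channel of smooth muscle and platelets, had 3.98, 4.17, 3.26 and 7.43 CPM at 4 months and 19.0, 14.7, 7.74 and 26.7 CPM at 2 months (-1.87). Both were low in every library, and replicate 4 was the highest at 4 months. Of 13 tested genes of nitric oxide and cyclic GMP signalling, 6 lay wholly lower, none wholly higher, and DESeq2 called 6 lower, or 3 without replicate 3 at 2 months (median -0.45). Among them Pde5a and Pde3a, which break down cyclic nucleotides, were at 10.8 to 19.8 and 22.6 to 45.3 CPM at 4 months, against 28.1 to 37.0 and 52.6 to 71.6 CPM at 2 months (-1.20 and -1.07). Kcnmb1, a potassium channel subunit counted in this list and not among the ion channels, also lay wholly lower. It was at 2.36 to 16.5 CPM at 4 months and 22.8 to 46.1 CPM at 2 months (-2.27, edgeR adjusted p = 0.127, DESeq2 adjusted p = 0.00216). Nos3, the endothelial nitric oxide synthase, had 30.02, 35.6, 25.6 and 40.9 CPM at 4 months and 55.5, 44.7, 44.3 and 49.9 CPM at 2 months (-0.59, edgeR adjusted p = 0.127), and overlaps Atg9b.

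Most elastic fibre genes had fold changes below 0. Of 22 tested members, 7 lay wholly lower and none wholly higher, DESeq2 called 12 lower and none higher, and edgeR called 13 lower without replicate 4 at 4 months. Without replicate 3 at 2 months DESeq2 called 8 lower. The median was -0.94 and 21 of the 22 fold changes were below 0. Eln, the elastin precursor, had 63.2, 73.9, 63.7 and 392 CPM in sham aortas at 4 months, against 1113, 792, 525 and 1488 CPM at 2 months. Replicates 1 to 3 at 4 months lay close together, replicate 4 was over 5 times as high, and all were below those at 2 months. The means were 148 ± 163 and 979.6 ± 416 CPM (SD, n = 4 each; -2.74, SE 0.689, edgeR adjusted p = 0.122, or 0.00325 without replicate 4 at 4 months). Ltbp1, which stores latent TGF-beta in the matrix, had 22.1, 22.9, 17.2 and 64.8 CPM at 4 months and 128, 103, 79.1 and 129 CPM at 2 months (-1.81, edgeR adjusted p = 0.105). Efemp2 (fibulin 4), which brings lysyl oxidase to elastin, had 14.9, 13.3, 13.8 and 24.3 CPM at 4 months and 33.9, 29.0, 27.4 and 49.9 CPM at 2 months (-1.11). The crosslinking enzyme genes Lox and Loxl1 were lower in mean but overlapped between the groups (-0.75 and -1.24, edgeR adjusted p = 0.212 and 0.162).

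All 16 collagen genes tested had fold changes below 0. Of these, 8 lay wholly lower, DESeq2 called 10 lower and edgeR called 11 lower without replicate 4 at 4 months (median -0.97). Col1a1, a chain of the fibrillar collagen I of the adventitia, had 115, 129, 95.7 and 262 CPM at 4 months and 416, 288, 351 and 413 CPM at 2 months. Replicate 4 was the highest at 4 months and just below the lowest library at 2 months. The means were 151 ± 75.8 and 367 ± 60.7 CPM (SD, n = 4 each; -1.31, SE 0.31, edgeR adjusted p = 0.107). Col3a1, the collagen III chain, had 201, 231, 159 and 373 CPM at 4 months and 617, 392, 506 and 417 CPM at 2 months (-1.03, edgeR adjusted p = 0.127). Col6a3, a chain of the microfibrillar collagen VI, had 46.2, 58.1, 42.0 and 71.4 CPM at 4 months and 123, 91.5, 99.7 and 108 CPM at 2 months (-0.99, SE 0.175, edgeR adjusted p = 0.0792). The basement membrane chains Col4a1 and Col4a2 had fold changes nearer to 0, with overlapping groups (-0.42 and -0.51).

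Of 16 tested genes of matricellular proteins and the TGF-beta response, 5 lay wholly lower, none wholly higher and 11 overlapped, and DESeq2 called 8 lower (median -0.91, 14 of 16 below 0). Tnc, tenascin C, a glycoprotein of remodelling matrix, had 8.85, 13.1, 10.1 and 22.4 CPM at 4 months and 53.2, 31.5, 32.5 and 31.1 CPM at 2 months (-1.47, edgeR adjusted p = 0.0943). Tgfb2, a TGF-beta ligand, had 9.22, 5.95, 6.06 and 10.4 CPM at 4 months and 19.25, 14.6, 18.6 and 18.7 CPM at 2 months (-1.20, edgeR adjusted p = 0.0792), while Tgfb1 was at 38.9 to 47.2 CPM at 4 months and 38.2 to 56.1 CPM at 2 months (-0.07). Postn, periostin, was at 109 to 207 CPM at 4 months and 208 to 359 CPM at 2 months, which just fail to overlap. Of 19 proteases and inhibitors, Mmp2, gelatinase A, lay wholly lower at 36.5 to 50.4 CPM at 4 months against 54.6 to 65.5 CPM at 2 months (-0.52), and Adam12, a membrane protease, wholly higher. Adam12 had 58.1, 57.9, 42.7 and 38.1 CPM at 4 months and 15.3, 13.6, 25.6 and 28.5 CPM at 2 months (1.21, edgeR adjusted p = 0.0944), the list's median being -0.45.

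Genes of bone and cartilage formation and of Wnt and Notch signalling were lower in part. Of 12 tested osteochondrogenic genes, 3 lay wholly lower (Sox9, Mgp and Sost) and none wholly higher (median -1.05), or 8 wholly lower without replicate 4 at 4 months. Mgp, matrix Gla protein, which keeps arteries from calcifying, had 130.5, 118, 96.3 and 281 CPM at 4 months and 409, 372, 330.4 and 561 CPM at 2 months (-1.44, edgeR adjusted p = 0.107). Sost, sclerostin, which blocks Wnt receptors, had 5.79, 8.29, 11.2 and 104 CPM at 4 months and 209, 146, 107 and 305 CPM at 2 months (-2.58, edgeR adjusted p = 0.224, or 0.00325 without replicate 4 at 4 months). Replicate 4 at 4 months was just below the lowest library at 2 months for Sost, and the other 3 were far below. Of 17 Wnt and Notch genes of arteries, 5 lay wholly lower and none wholly higher, and DESeq2 called 6 lower (median -0.50). Wif1, a secreted Wnt inhibitor, had 0.139, 0.114, 0.255 and 2.05 CPM at 4 months and 5.26, 5.43, 3.21 and 3.35 CPM at 2 months (-2.68, edgeR adjusted p = 0.149). Heyl, a Notch target of smooth muscle, had 22.6, 33.3, 22.1 and 32.0 CPM at 4 months and 71.9, 57.1, 40.0 and 80.6 CPM at 2 months (-1.21, edgeR adjusted p = 0.0849). Notch3, the Notch receptor of arterial smooth muscle, was at 52.8 to 64.4 CPM at 4 months and 65.5 to 92.0 CPM at 2 months (-0.54, edgeR adjusted p = 0.0924), while the endothelial Dll4 and Notch1 overlapped (-0.42 and -0.16).

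**Figure D3:**
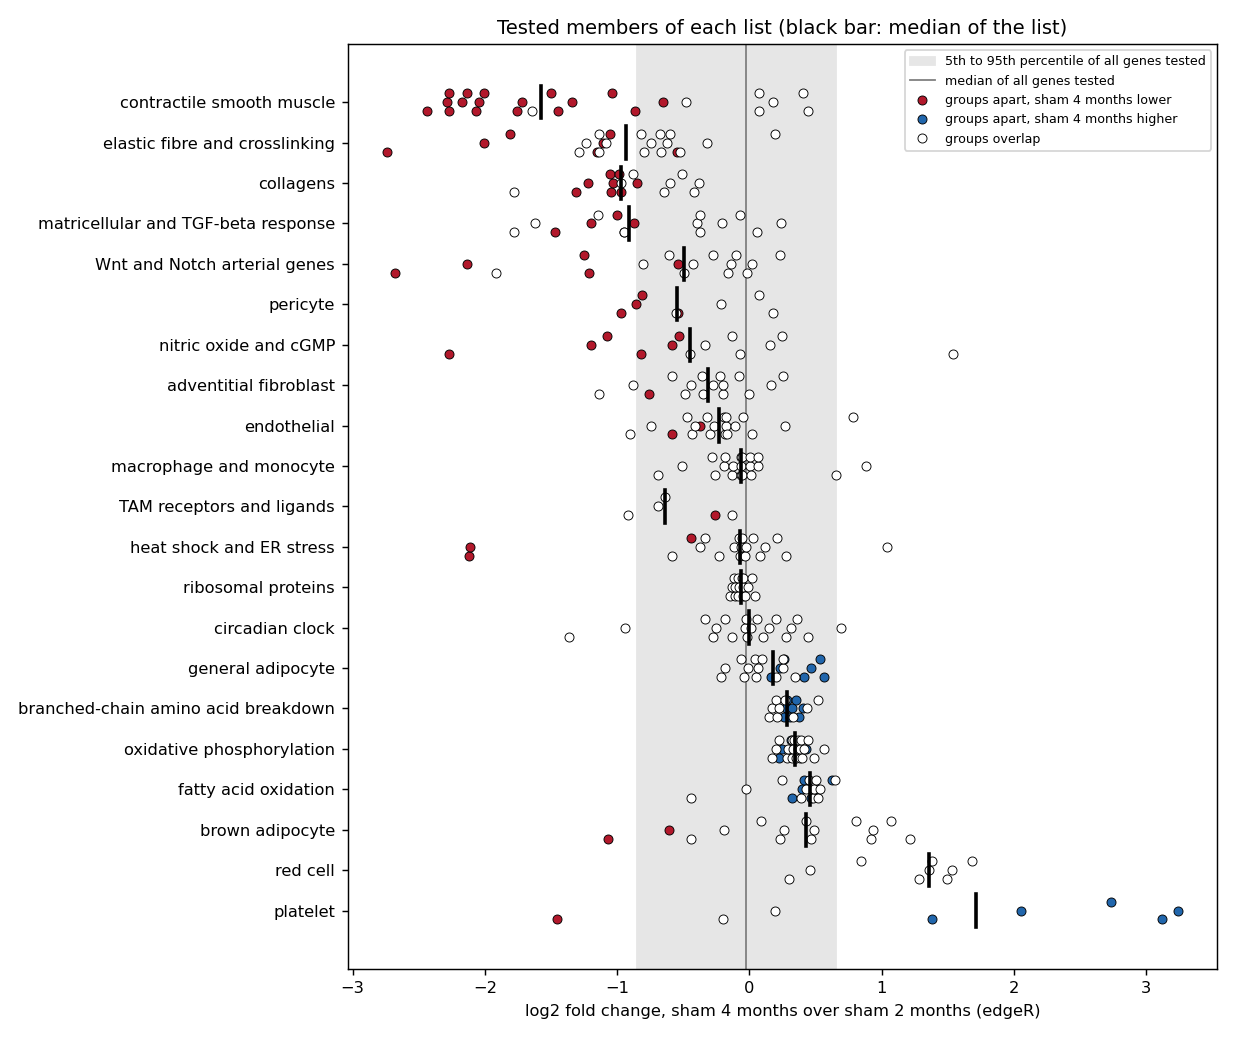
Each point is a tested member of a gene list, placed by its log2 fold change, sham 4 months over sham 2 months, with the list's median as a black bar and the 5th to 95th percentile of all genes tested in grey. Red points lie wholly lower at 4 months, blue points wholly higher and open points overlap. The contractile list has 17 red points of 24, and lists of fat and mitochondrial metabolism have blue points at small fold changes.

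Without replicate 4 at 4 months, the members that lay wholly lower were 17 of 22 in the elastic fibre list, 14 of 16 among the collagens, 11 of 16 in the matricellular and TGF-beta list, 9 of 17 in the Wnt and Notch list, 7 of 19 among proteases and inhibitors and 6 of 21 among vasoactive receptors, beside 11.2% of all genes. On the same basis 6 of 18 fatty acid synthesis genes lay wholly lower, and 6 of 9 red cell and 4 of 20 heat shock and stress genes wholly higher, beside 8.86% of all genes in that direction.

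Markers of other cell types of the wall were counted in the same way. Of 8 pericyte genes, 4 lay wholly lower (median -0.55). They include Rgs5, a brake on G protein signals, at 357 to 469.9 CPM at 4 months and 516 to 927 CPM at 2 months, and Cspg4 (NG2), at 60.9 to 102 CPM at 4 months and 116 to 187 CPM at 2 months (-0.81 and -0.97, edgeR adjusted p = 0.0969 and 0.0877). Both are also made by smooth muscle. Of 20 endothelial genes, 2 lay wholly lower (Nos3 and Erg) and none wholly higher, and the median was -0.23. Of 16 adventitial fibroblast genes, Tnxb lay wholly lower, while Pdgfra, the receptor that marks fibroblasts, overlapped at 24.1 to 33.8 CPM at 4 months and 23.3 to 55.4 CPM at 2 months (list median -0.31). Of 12 lymphatic and mesothelial genes, none lay apart. Their summed level was 229.5, 152, 82.3 and 267 CPM at 4 months and 259.9, 185, 479.7 and 263 CPM at 2 months. Without replicate 4 at 4 months, 6 of the 20 endothelial, 6 of the 16 fibroblast and 2 of the 12 lymphatic and mesothelial genes lay wholly lower. Whether these lists differ from the contractile list was not tested.

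Several genes of fatty acid oxidation lay higher at 4 months, with small fold changes. Of 18 fatty acid oxidation genes, 6 lay wholly higher at 4 months and none wholly lower, and DESeq2 called 8 higher, or 3 without replicate 3 at 2 months (median 0.46). Without replicate 4 at 4 months, 13 lay wholly higher. Their summed level was 14400, 17490, 16116 and 12590 CPM at 4 months and 13026, 9368, 11682 and 8854 CPM at 2 months, groups that overlap through replicate 4 at 4 months and replicate 1 at 2 months. Ehhadh, a bifunctional enzyme of peroxisomal beta-oxidation, had 88.6, 111, 88.8 and 109.7 CPM at 4 months and 78.6, 55.1, 58.3 and 60.0 CPM at 2 months (0.63, SE 0.133, edgeR adjusted p = 0.0924). Cpt2, which reforms acyl-CoA inside mitochondria, had 363, 381, 316 and 294 CPM at 4 months and 252, 189, 229.9 and 251 CPM at 2 months (0.52, edgeR adjusted p = 0.103). Neither passed, though every library at 4 months exceeded every library at 2 months. Cpt1a and Cpt1b, which import fatty acids into mitochondria, did not follow (-0.02 and -0.44, with overlapping groups).

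Of 25 oxidative phosphorylation genes tested, all encoded in the nucleus, 5 lay wholly higher and all 25 fold changes were above 0, but DESeq2 called 3, 19 without replicate 4 at 4 months and 1 without replicate 3 at 2 months (median 0.35). The cytochrome oxidase subunit gene Cox7c was at 349 to 489 CPM at 4 months and 280.0 to 330.0 CPM at 2 months (0.43, edgeR adjusted p = 0.136). Of 17 genes for the breakdown of branched-chain amino acids, 8 lay wholly higher, and DESeq2 called 5, or 2 without replicate 3 at 2 months (median 0.28). Hibch, an enzyme of valine breakdown, had 259.9, 261, 271 and 242 CPM at 4 months and 219, 180.2, 191 and 171 CPM at 2 months (0.41, SE 0.0897, edgeR adjusted p = 0.0949). Of 17 citric acid cycle genes, 2 lay wholly higher, or 11 without replicate 4 at 4 months (median 0.34). Of 15 genes of the mitochondrial chromosome, none lay apart, or 6, all higher, without replicate 4 at 4 months, and they summed to 139070, 186240, 160380 and 100580 CPM at 4 months and 147240, 114280, 124080 and 80498 CPM at 2 months.

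Of 20 general adipocyte genes, 7 lay wholly higher and none wholly lower, and DESeq2 called 4 higher (median 0.18). Fabp4, the fatty acid carrier of fat cells and capillaries, had 10026, 10678, 10330 and 8161 CPM at 4 months and 7244, 6482, 6266 and 6472 CPM at 2 months (0.53, edgeR adjusted p = 0.41, DESeq2 adjusted p = 7.51e-05). Lpl, the lipase that releases fatty acids from lipoproteins, had 7144, 6022, 6666 and 4769 CPM at 4 months and 4577, 4071, 4024 and 3578 CPM at 2 months (0.56, edgeR adjusted p = 0.299). Adipoq, adiponectin, was at 1608 to 1685 CPM at 4 months and 1297 to 1548 CPM at 2 months (0.17, edgeR adjusted p = 0.531). The ranges did not overlap, but the difference was small. Plin1, which coats lipid droplets, overlapped (0.05). When an adipocyte score, the mean of the list's genes in CPM on a log scale, was added to the model, edgeR called 0 genes. The count at an unadjusted p under 0.05 was then 2298. The list's summed level did not overlap between the groups, at 37573 to 42286 CPM at 4 months and 29592 to 36753 CPM at 2 months. A fit of 8 libraries can therefore hardly separate the score from time, and the loss of the call decides nothing. Of 18 fatty acid synthesis genes, 1 lay apart (Acacb, higher) and 12 had fold changes below 0 (median -0.33), and their summed level was set by single libraries, at 14705, 18100, 14206 and 36943 CPM at 4 months and 19300, 14848, 15328 and 56790 CPM at 2 months.

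**Figure D4:**
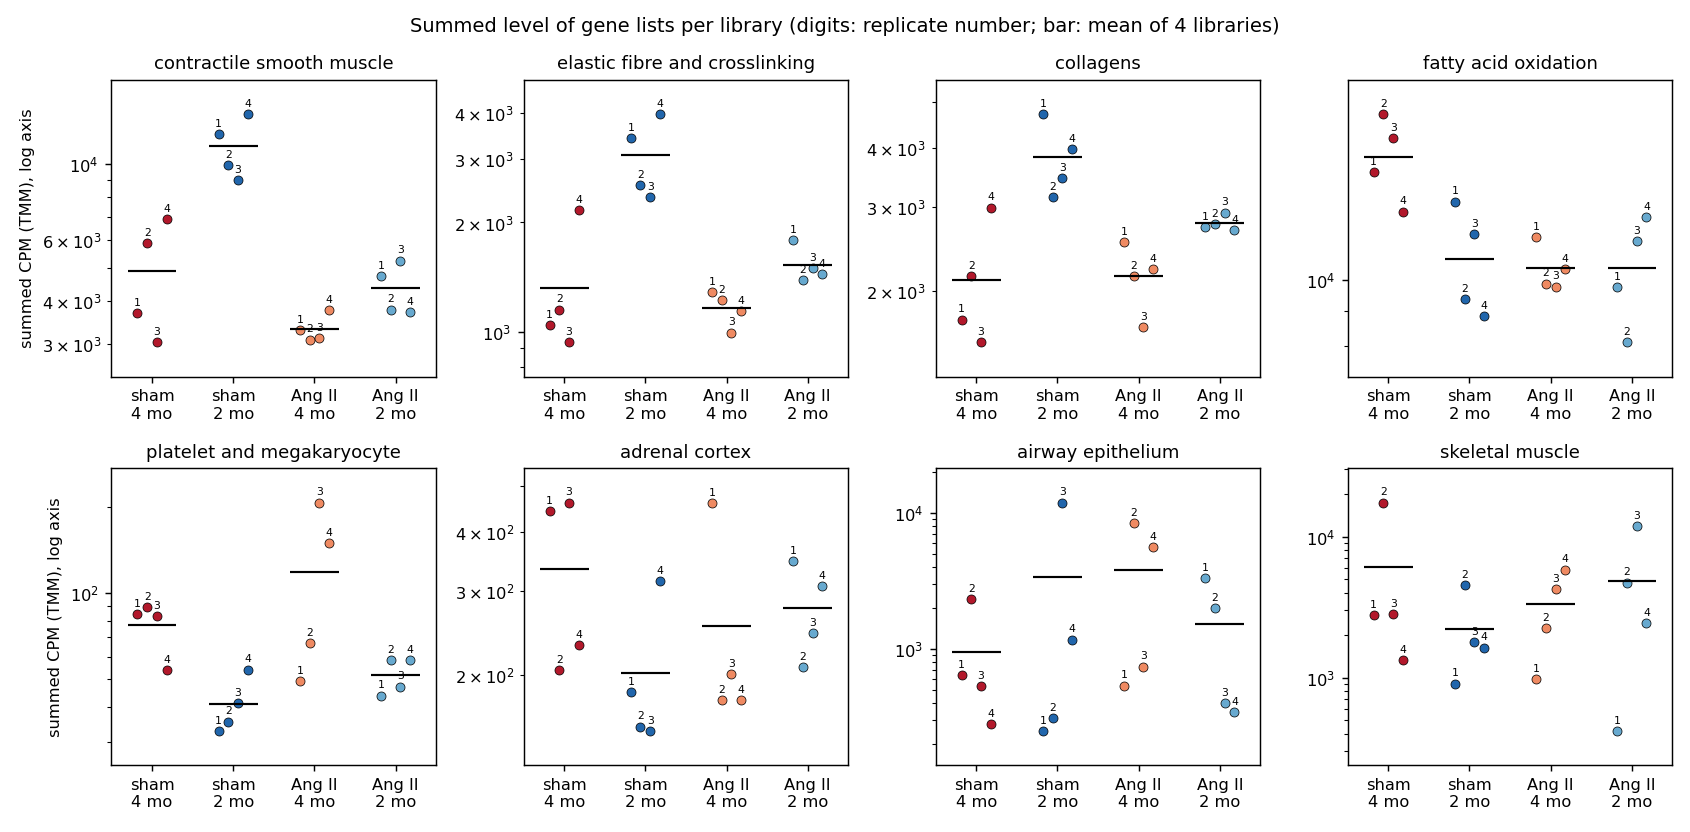
Summed levels of 8 gene lists in each library, in CPM on a log axis, with replicate numbers, the mean of 4 libraries as a bar, and sham 4 months, sham 2 months, Ang II 4 months and Ang II 2 months from left to right. The platelet panel shows the longer platelet and megakaryocyte list, which, like the adrenal cortex list, was chosen after the data were seen. Contractile sums are 3026 to 6900 CPM in sham 4 months and 8993 to 13987 CPM in sham 2 months, while airway epithelium and skeletal muscle sums are set by 1 library each among the sham groups.

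Platelet transcripts were low in all libraries, yet several lay apart. Of 8 tested genes of the platelet list, 5 lay wholly higher and 1 wholly lower, with the same counts under DESeq2 (median 1.72). The list's summed level overlapped, at 64.0, 62.1, 63.5 and 59.2 CPM at 4 months and 60.3, 55.0, 52.2 and 89.4 CPM at 2 months. Itga2b had 14.5, 11.1, 11 and 7.19 CPM at 4 months and 3.77, 5.14, 3.58 and 3.84 CPM at 2 months. Ppbp had 9.91, 11.5, 10.4 and 2.81 CPM at 4 months and 1.19, 1.05, 1.21 and 0.345 CPM at 2 months, and Gp9 had 2.73, 2.34, 2.04 and 1.08 CPM at 4 months and 0.466, 0.211, 0.25 and 0.246 CPM at 2 months. Replicate 4 was the lowest of its group in all of these. Treml1 and Clec1b, receptors of the platelet surface, were at 0.683 to 2.86 and 1.37 to 2.92 CPM at 4 months, against 0.126 to 0.254 and 0.291 to 0.936 CPM at 2 months. The member that was lower was Itgb3, the beta chain that pairs with Itga2b and is also made in smooth muscle and endothelium. It had 10.4, 8.18, 10.2 and 21.4 CPM at 4 months and 35.6, 30.6, 23.5 and 45.8 CPM at 2 months (-1.46, edgeR adjusted p = 0.0987). Pf4, platelet factor 4, overlapped at 16.4 to 20.4 CPM at 4 months and 12.6 to 34.6 CPM at 2 months (-0.20). In a longer platelet and megakaryocyte list chosen after the data were seen, 8 of 13 tested genes lay wholly higher, among them Tubb1, the platelet tubulin, at 2.46, 2.74, 1.43 and 0.602 CPM at 4 months and 0.127, 0.126, 0.0420 and 0.148 CPM at 2 months.

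Red cell transcripts were higher in mean at 4 months but overlapped for all 9 tested members (median 1.36; DESeq2 called 4 higher). Hbb-bs, a beta globin, had 895, 475, 409 and 249.7 CPM at 4 months and 128, 256, 104 and 194 CPM at 2 months (1.53, edgeR adjusted p = 0.136). The globin genes are near-identical pairs, so reads may be split between copies. The amount of blood left in the vessels is not given in the sources used here, and its part in the platelet and red cell values was not tested.

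Few immune genes lay apart between the sham groups. Of 20 macrophage and monocyte genes, 17 T and NK cell genes, 17 B and plasma cell genes, 18 antigen presentation genes and 15 cytokine and chemokine genes, none lay apart, and DESeq2 called none. T and NK cell transcripts summed to 149, 49.8, 159 and 151 CPM at 4 months and 19.6, 201, 17.4 and 11.8 CPM at 2 months, and B and plasma cell transcripts to 3250.0, 740.1, 1030.0 and 1429 CPM at 4 months and 368, 1661, 341 and 897 CPM at 2 months. Replicate 2 at 2 months had the highest T and NK cell sum of the 8 libraries and the other 3 of its group the lowest. All 17 T and NK cell genes and 16 of 17 B and plasma cell genes had fold changes above 0 (medians 0.97 and 1.13). Macrophage and monocyte transcripts summed to 728, 562, 508 and 818 CPM at 4 months and 517, 619, 834 and 750.4 CPM at 2 months (median -0.06). Of 20 interferon-stimulated genes, 1 lay wholly lower and 1 wholly higher (median -0.10). Of 3 tested thymocyte genes, 1 lay wholly higher, and of 4 tested lymph node stroma genes, 1 lay wholly lower.

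Among stress genes, 3 chaperones lay wholly lower. Of 20 heat shock and endoplasmic reticulum stress genes, those 3 were also the ones called by DESeq2, and the median was -0.07. Hspa1b, an inducible chaperone of the HSP70 family, had 6.53, 7.78, 6.47 and 11.9 CPM at 4 months and 36.8, 30.7, 20.2 and 51.5 CPM at 2 months (-2.11, SE 0.309, edgeR adjusted p = 0.0792). Hspa1a had 3.43, 4.63, 3.31 and 6.63 CPM at 4 months and 20.8, 14.4, 12.5 and 29.3 CPM at 2 months (-2.12), and is a near-identical copy of Hspa1b, so the split of reads between them is uncertain. Hsph1, a nucleotide exchange factor for HSP70, had 55.1, 64.8, 57.1 and 50.6 CPM at 4 months and 75.6, 72.8, 69.2 and 83.4 CPM at 2 months (-0.44, edgeR adjusted p = 0.0877). Hsp90aa1, another heat shock factor target, overlapped at 307 to 521 CPM at 4 months and 316 to 328 CPM at 2 months (0.21).

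Heat shock factor 1 binds inverted repeats of NGAAN. The form GAANNTTC, which reads alike on both strands, was present in 2582 of 32851 promoter windows (7.86%), and in 6 of the 16 heat shock and stress genes that matched the table: Asns, Dnaja1, Hspa1a, Hspa1b, Hspb1 and Hsph1. Here too a gene was counted if any of its windows held the motif, so these counts are in unlike units. The Hspa1b window is shown because it belongs to the chaperone gene with the smallest p-value (GRCm38.p6, chr17:34959189-34959488, minus strand), with the motif, which begins at position -104 from the gene's start, in capitals.
Hspa1b: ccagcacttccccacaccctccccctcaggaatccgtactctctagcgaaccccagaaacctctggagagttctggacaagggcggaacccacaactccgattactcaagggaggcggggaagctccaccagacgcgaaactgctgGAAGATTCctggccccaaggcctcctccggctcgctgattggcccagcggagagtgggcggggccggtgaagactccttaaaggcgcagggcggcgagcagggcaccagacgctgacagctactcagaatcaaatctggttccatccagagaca
Dnaja1 and Hspb1, whose windows also hold the motif, overlapped between the groups (-0.08 and -0.23).

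Other lists held single genes that lay apart. Of 18 oxidant and antioxidant genes, Gpx1, which reduces peroxides with glutathione, had 679, 668, 657 and 574 CPM at 4 months and 424, 420.4, 423 and 486 CPM at 2 months (0.52, SE 0.092, edgeR adjusted p = 0.0792). Sod3, the extracellular superoxide dismutase of the vessel wall, lay wholly lower at 264 to 361 CPM at 4 months against 373 to 609.9 CPM at 2 months (-0.61). Nox4, a superoxide-producing oxidase of smooth muscle, had 4.68, 4.17, 4.94 and 23.7 CPM at 4 months and 39.0, 38.4, 22.3 and 54.7 CPM at 2 months, and overlapped through replicate 4 at 4 months (-2.05, edgeR adjusted p = 0.162, or 0.00325 without it). The metallothionein genes Mt1 and Mt2, which bind zinc, lay wholly higher at 292 to 358 and 7.23 to 12.4 CPM at 4 months, against 213 to 248 and 4.83 to 6.53 CPM at 2 months (0.45 and 0.78, edgeR adjusted p = 0.0896 and 0.116). Of 20 circadian clock genes, none lay apart (median 0.00), and of 21 immediate early genes only Klf6 did, lower at 93.2 to 105 CPM at 4 months against 108 to 129 CPM at 2 months. Nr4a1, an immediate early nuclear receptor, had 166, 169, 99.9 and 47.0 CPM at 4 months and 43.3, 59.3, 36.5 and 28.6 CPM at 2 months, an overlap of replicate 4 at 4 months with 1 library (1.48, edgeR adjusted p = 0.132).

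Several transcripts of the adrenal cortex, the outer part of a gland near the aorta, were higher at 4 months, but their list's summed level overlapped. It was 442, 205, 461 and 231 CPM at 4 months and 184, 155, 152 and 315 CPM at 2 months. In a list of its genes chosen after the data were seen, 6 of 8 tested genes lay wholly higher, and DESeq2 called 6 higher with all 8 libraries, without replicate 4 at 4 months and without replicate 3 at 2 months (median 4.77). Cyp11b1, which makes corticosterone, had 27.0, 2.12, 22.9 and 1.53 CPM at 4 months and 0.0420, 0, 0.333 and 0.0490 CPM at 2 months, and Star, which carries cholesterol into mitochondria for steroid synthesis, had 79.0, 11.4, 85.7 and 13.3 CPM at 4 months and 8.65, 5.18, 9.87 and 5.86 CPM at 2 months. Replicates 1 and 3 at 4 months were far above the other 6 sham libraries for both. In Ang II aortas Star had 94.8, 9.45, 15.6 and 13.7 CPM at 4 months and 22.9, 9.80, 9.06 and 6.23 CPM at 2 months. Sftpc, the surfactant gene of alveolar cells, was at 0.0800 to 12.0 CPM at 4 months and 0 to 0.749 CPM at 2 months. With an airway epithelium score, made like the adipocyte score, in the model, edgeR called 0 genes, and 2488 had an unadjusted p under 0.05. Without replicate 3 at 2 months, the library with 11934 CPM of airway transcripts, edgeR called 1 gene, which was not Prdm16. DESeq2 called 559 without it, and 13 of the 24 contractile genes lower.

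By its title the series concerns Axl in hypertensive remodelling of the aorta. Axl, Tyro3 and Mertk are the TAM family of receptors, which bind Gas6 on dying cells and damp inflammation. Tyro3 and Mertk also bind Pros1. None of the 5 receptor and ligand genes passed, and all 5 had fold changes below 0 (median -0.64). Axl had 68.6, 65.0, 55.4 and 124 CPM in sham aortas at 4 months, against 144, 117, 112 and 209 CPM at 2 months (-0.92, SE 0.289, edgeR adjusted p = 0.183). Replicate 4 at 4 months overlapped the 2-month range. Mertk had 22.8, 20.8, 18.2 and 33.4 CPM at 4 months and 45.1, 40.7, 31.2 and 33.4 CPM at 2 months (-0.69, edgeR adjusted p = 0.166), and the ligand gene Gas6 had 120.3, 118, 102 and 206 CPM at 4 months and 207, 170.4, 203 and 254 CPM at 2 months (-0.64, edgeR adjusted p = 0.217). Without replicate 4 at 4 months, edgeR called Axl, Mertk and Gas6 lower (adjusted p = 0.0248, 0.0218 and 0.0134). Pros1 lay wholly lower by a small margin, at 33.0 to 40.9 CPM at 4 months against 41.2 to 45.2 CPM at 2 months (-0.26), and Tyro3 overlapped at 7.49 to 14.9 CPM at 4 months and 8.06 to 16.1 CPM at 2 months.

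Agtr1a, the main receptor for Ang II in arteries, was the only one of 10 tested renin angiotensin genes that lay apart. It had 42.5, 22.4, 53.9 and 26.9 CPM at 4 months and 19.25, 20.4, 21.02 and 20.98 CPM at 2 months (0.80, SE 0.251, edgeR adjusted p = 0.182). Replicates 1 and 3, which also had the highest adrenal cortex transcripts, were the highest, and the part of that tissue in the value was not tested. Ace, the converting enzyme, had 46.3, 36.4, 38.1 and 109 CPM at 4 months and 99.8, 90.1, 84.0 and 119 CPM at 2 months (-0.80, edgeR adjusted p = 0.307).

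Whether sham aortas differed between the times more or less than Ang II aortas was tested as an interaction over 16 libraries, which include the same 8 sham libraries. Of 17153 genes, 1 passed, Banp (0.00583%), and 1863 had an unadjusted p under 0.05 (10.9%). Banp, which encodes a nuclear matrix protein that binds unmethylated CG-rich promoters, had 11.3, 12.9, 12.7 and 10.7 CPM in sham aortas at 4 months and 22.3, 21.9, 20.02 and 17.8 CPM at 2 months, and 17.2, 14.3, 14.7 and 13.4 CPM in Ang II aortas at 4 months and 11.1, 9.05, 9.32 and 12.5 CPM at 2 months. It was lower at 4 months in all sham libraries and higher in all Ang II libraries. In that fit its fold changes were -0.78 in sham and 0.51 in Ang II aortas, and their difference was -1.29 (SE 0.177, edgeR adjusted p = 0.04997). That value is just inside the threshold and other genes overlap Banp in the annotation, among them Gm20388 on the same strand. No gene passed when any 1 of 13 of the 16 libraries was left out.

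Of the other 9 genes with the smallest interaction p, none passed (edgeR adjusted p from 0.182 for Enc1 to 0.189). Enc1, an actin-binding adaptor, had 40.9, 56.1, 44.4 and 39.3 CPM in sham aortas at 4 months and 26.8, 28.6, 33.3 and 29.9 CPM at 2 months, and 32.6, 23.3, 34.6 and 38.7 CPM in Ang II aortas at 4 months and 53.4, 49.1, 45.5 and 53.0 CPM at 2 months. Cd9, a tetraspanin, was at 84.3 to 117 CPM in sham aortas at 4 months and 117 to 161 CPM at 2 months, while Ang II aortas had 111 to 164 CPM at 4 months and 71.0 to 92.8 CPM at 2 months. Sham and Ang II aortas thus lay in opposite order for both genes. Ramp1, a partner of the receptor for the vasodilator CGRP, and Cd200, a surface protein that restrains myeloid cells, had differences of -1.16 and -0.82, and Tspan2 and Wwp2, a ubiquitin ligase, of -1.18 and -1.48. For these 4 genes the sham groups lay apart, while the Ang II changes were 0.33, 0.13, -0.07 and 0.09. Lurap1, Dlc1, a GTPase-activating protein for RhoA, and Ivd, an enzyme of leucine breakdown, had positive differences (1.29, 0.81 and 0.67).

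In the fit of 16 libraries, Ang II aortas differed between 4 and 2 months in 1 gene of 17153 (0.00583%), Gpr182 (0.85, edgeR adjusted p = 0.0202). In them 1852 genes had an unadjusted p under 0.05 (10.8%). In that same fit edgeR called 409 genes in sham aortas, and 2918 had an unadjusted p under 0.05. The contractile list summed to 3290.4, 3086, 3116 and 3765 CPM in Ang II aortas at 4 months and 4713, 3773, 5235 and 3710.3 CPM at 2 months, so all 8 Ang II libraries were below the 4 sham libraries at 2 months, which held the highest contractile levels of the 16. Eln was at 54.6 to 140.1 CPM in Ang II aortas at 4 months and 86.9 to 241 CPM at 2 months, also below every sham library at 2 months. The median fold changes of the contractile, elastic fibre, collagen, fatty acid oxidation and platelet lists were -1.57, -0.94, -0.97, 0.46 and 1.72 in sham aortas, beside -0.47, -0.29, -0.39, 0.00 and 1.88 in Ang II aortas. The smallest interaction adjusted p in these lists was 0.191 in edgeR, so no member passed the test of the difference.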

How the data were processed

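RNA was measured by sequencing of aortic homogenates, with libraries made from 1.3 micrograms of total RNA by a SMARTER mRNA-Seq kit, per the labels' protocols. The authors deposited a table of raw counts per gene for 37606 gene IDs and 24 libraries. FastQC, cutadapt, STAR, featureCounts, DESeq2 and the build mm10 are named in the submitters' processing notes; the sources used here do not give versions, strand setting or annotation release. Of the IDs, 23514 were named from the deposited tables, 14040 from GENCODE M21 and 52 not at all. The 8 sham libraries were fitted alone with edgeR 4.0.16 (TMM scaling, filterByExpr with a minimum count of 10, quasi-likelihood test, Benjamini-Hochberg adjustment at 0.05), which was tested on simulated data. The interaction and the Ang II contrast used 16 libraries. CPM of single libraries and sums of gene lists use TMM scaling over those 16 libraries, so they can exceed the raw share of counts, while fold changes and p-values come from the fit named. DESeq2 1.42.0 and limma 3.58.1 (voom) served as alternatives, as did leaving out each library. The depth of 19983753 to 24900764 counts per sham library limits genes under about 1 CPM, where a library holds few reads.

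Members and gene lists were chosen with earlier results of these data known. Genes named by rule were Acta2, Myh11, Eln, Col1a1, Col3a1, Axl, Mertk, Gas6, Agtr1a, Adipoq and Ucp1, any gene passing the adjusted threshold, the 5 with the smallest p in each direction, both at a mean of at least 1 CPM, and the 10 with the smallest interaction p, leaving out predicted genes; other examples from the lists were chosen after their values were seen, as were the longer platelet list and the adrenal lists. Promoters are from the RefSeq table of GRCm38.p6. Tagln, Vcl, Nos3, Mfap4, Tgfb3, Gas6, Col18a1, Angpt2, Lurap1, Prkg1, Clec1b and Cyp11b1 are among the named or listed genes that overlap another annotated gene, so their counts are uncertain. Libraries at 6 months were not analysed here.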

Additional observations from a re-analysis of the deposited data

Results flagged for a closer look

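A library was singled out where its distance to the nearest of the other 3 in its group exceeded Dixon's 95% critical value for 4 samples. Of 176 groups of 4 examined, 21 were singled out, where chance gives about 1 in 20 groups; the lists share genes and libraries, so these are not independent.

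Replicate 4 of sham aortas at 4 months was high for smooth muscle and matrix genes. Its Acta2 was 1261 CPM against 262.3 to 285.6 CPM in the other 3 libraries, its Myh11 628.9 CPM against 131.9 to 154.4 CPM and its Eln 392.1 CPM against 63.18 to 73.92 CPM. Wwp2, a ubiquitin ligase gene, was at 69.68 CPM in it, against 34.04 to 38.15 CPM. The summed Wnt and Notch arterial genes reached 507.1 CPM, against 370.7 to 378.4 CPM, and TAM receptors and ligands 412.1 CPM, against 223.3 to 255 CPM. In the same library general adipocyte genes were low, summing to 37570 CPM, against 41990 to 42290 CPM. Capillary endothelial genes of fat were low as well, at 15720 CPM, against 19920 to 20190 CPM. Fatty acid synthesis genes, for which this library was not singled out, went the other way, at 36943 CPM in it, against 14206 to 18100 CPM.

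Other libraries at 4 months stood out in single lists. Replicate 2 had 49.8 CPM of T and NK cell transcripts, against 149.5 to 158.7 CPM, and 17380 CPM of skeletal muscle transcripts, against 1334 to 2809 CPM.

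At 2 months, replicate 1 had 0.4664 CPM of Gp9, against 0.2106 to 0.2498 CPM, and 14640 CPM of capillary endothelial genes of fat, against 12420 to 12750 CPM. Replicate 2 had 5.139 CPM of Itga2b, against 3.58 to 3.842 CPM, 200.6 CPM of T and NK cell transcripts, against 11.77 to 19.59 CPM, and 171.5 CPM of proliferation genes, against 84.57 to 92.3 CPM. Replicate 3 had 11930 CPM of airway epithelium transcripts, against 249.5 to 1174 CPM, and 144.1 CPM of alveolar lung transcripts, against 14.42 to 23.34 CPM. Replicate 4 had 139.3 CPM of neutrophil and mast cell transcripts, against 51.56 to 66.28 CPM, and 56790 CPM of fatty acid synthesis genes, against 14850 to 19300 CPM. It also had 21390 CPM of glycolysis and glycogen genes, against 9858 to 11020 CPM, and 70.78 CPM of thyroid and parathyroid transcripts, against 25.98 to 32.73 CPM.

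Banp was singled out because its change between the times differed between sham and Ang II aortas by an interaction of -1.295 on the log2 scale (edgeR adjusted p = 0.04997).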

How the results depend on the processing

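For the sham aortas, 1 gene was also called with DESeq2's size factors in edgeR, without the mitochondrial chromosome, with the older quasi-likelihood method, and with the log2 fold change required to reach 1 in size. The count was 852 with DESeq2, 801 with limma voom and quality weights, and 409 in a single fit of 16 libraries. An adjusted p below 0.1 gave 286. None was called without a filter on low counts, with a mean count of at least 5, or with an airway epithelium or adipocyte score as covariate (edgeR counts of 0), where 3293, 2730, 2488 and 2298 genes had an unadjusted p under 0.05. Leaving out each library gave 0 to 663 genes, with 663 without replicate 4 at 4 months and 0 or 1 without any other. The 1 gene called without replicate 3 at 2 months was not Prdm16. DESeq2 called 1449 without replicate 4 at 4 months and 559 without replicate 3 at 2 months. The older method, the 0.1 threshold and both DESeq2 fits with a library left out were added after seeing the data.

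With the replicate number as a block, 138 genes were called in sham aortas, 0 for the interaction (1645 at an unadjusted p under 0.05) and 1 for the Ang II aortas. Whether the numbers pair the samples is not given in the sources used here. Deviations of same-numbered sham libraries from their group means correlated at -0.25, -0.32, -0.31 and 0.13, and at 4 months no library correlated best with its own number. With so few libraries, such correlations cannot decide whether the samples were paired.

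For the interaction, DESeq2 called 179 genes, limma voom 467, no filter on low counts 0 and the older method 0 (2405 and 1813 at an unadjusted p under 0.05), and leaving out each library gave 0 to 142, the highest without sham replicate 4 at 4 months. For the Ang II aortas, DESeq2's size factors gave 3, and leaving out each library gave 0 to 10. The cause of these differences was not tested. The 29 genes named by rule kept the direction of their sham fold change in all 21 alternatives run for each gene.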

Other observations

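Several cell types beyond those described above were measured through small lists. Of 10 genes of capillary endothelium in fat, 3 lay wholly higher in sham aortas at 4 months than at 2 months and none wholly lower (median 0.34). Of 19 Schwann cell genes, 3 lay wholly lower and none wholly higher (median 0.09). Of 20 glycolysis and glycogen genes 1 lay wholly higher, of 12 glucocorticoid-responsive genes 2 did, and of 6 tested histone genes 1 did, Hist1h4h, at 9.76 to 19.0 CPM at 4 months and 4.88 to 7.72 CPM at 2 months. Hist1h4h belongs to a family of near-identical copies, so its count is uncertain.

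None lay apart among 20 cholesterol synthesis, 18 proliferation, 12 senescence, 16 ribosomal protein and 8 neutrophil and mast cell genes. The same held for 19 skeletal muscle, 13 cardiac muscle, 16 airway, 7 alveolar, 4 thyroid and parathyroid and 4 oesophagus genes, and for 6 adrenal medulla genes, also chosen after seeing the data. Proliferation genes summed to 113, 91.8, 107 and 188 CPM at 4 months and 86.7, 172, 92.3 and 84.6 CPM at 2 months.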
